A study of Homo sapiens with 6 samples.

Results

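Replication-dependent histone genes encode the H1, H2A, H2B, H3 and H4 proteins that package newly copied DNA. Their mRNAs are, as a rule, made in S phase and end in a conserved stem-loop in place of a poly(A) tail. The stem-loop is bound by SLBP, and the U7 snRNP directs the cut behind it. Some of these genes also give polyadenylated mRNAs that run past the stem-loop, and these are known from cells that have left the cell cycle. How a library is made therefore bears on how much of this RNA it holds.

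The genes were taken as the rows of the count table with an Ensembl identifier, a Gene Ontology entry and a symbol of the replication-dependent histone families, in the current naming (H2BC5) or the older one (HIST1H2BD). This rule found 56 genes among 60780 rows. It left out 10 further rows of the same families that had no Gene Ontology entry, none of which had more than 1 count in total over the libraries. By class the 56 genes were 6 of H1, 12 of H2A, 16 of H2B, 11 of H3 and 11 of H4. In the GENCODE 29 annotation of GRCh38, 44 of them lay on chromosome 6 and 10 on chromosome 1, and H3C2 and H3C3 were not matched by identifier.

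RNA-seq was performed on LX-2 cells, immortalised human hepatic stellate cells that had spent 24 h in conditioned medium of HCT116, a human colorectal carcinoma line. This medium was taken from HCT116 cells infected with a lentiviral vector alone (Vector-CM, n = 3) or with lentivirus carrying FGFBP1, a secreted protein that binds fibroblast growth factors (FGFBP1-CM, n = 3). Both producer lines had been selected with puromycin, and no source states whether the 3 libraries of a group came from separate cultures, so p-values measure the spread between these libraries.

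The libraries held 14003780 to 18508113 counts, so that 3 counts corresponded to 0.158 to 0.217 CPM, the count scaled to library depth. Replicates of a group differed by more than counting noise, and FGFBP1-CM replicate 1 stood furthest from its group, with a chi-square per degree of freedom of 10.2 and 9.41 against the other FGFBP1-CM libraries and of 2.88 to 5.73 among the remaining pairs within a group. Of 18 hepatic stellate cell markers with 1 row in the table, 16 passed the filter on low counts, and LRAT had no count in any library. Their summed level was 3581 to 3761 CPM under Vector-CM against 2786 to 3282 CPM under FGFBP1-CM, and TIMP1, which was lower, was the marker past the adjusted threshold in edgeR. Its call was lost without any 1 of the Vector-CM libraries, with an adjusted p of 0.0787 to 0.241. In bulk RNA, fewer cells of a type cannot be told apart from less RNA per cell. Of 20 colorectal epithelial markers, 12 had at most 3 counts in every library, and CEACAM5 and CEACAM6 had none. The summed level of 15 hepatocyte markers was 42.4 to 45.5 CPM under Vector-CM against 18.7 to 28.5 CPM under FGFBP1-CM. Of these 6 were tested, and ALB, APOB, AFP and FGA were lower past the threshold. AFP lost its call without Vector-CM replicate 2 or 3, with an adjusted p in edgeR of 0.116 and 0.142, and FGA without any 1 of the Vector-CM libraries, with 0.0741 to 0.187. The part of these marker lists in the histone values was not tested.

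The stem-loop was searched for in the GENCODE 29 transcripts, and 25 of the 54 annotated genes had it. In 26 of the 29 without it the longest transcript had a length divisible by 3, as a coding sequence has. Not all of these held the coding sequence alone. H3C6 with 2679 bases and H4C3 with 435 bases were among them, where H3C1 had 411 bases and H4C4 had 312. In 18 of the 25 the transcript went on for more than 100 bases behind the stem-loop. The stem-loops of the genes described most closely in the results are printed from GENCODE 29 as DNA, 5′ to 3′, with the stem-loop in capitals and the flanking bases in lower case.

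H2BC5: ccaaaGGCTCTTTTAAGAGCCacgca
H2BC4: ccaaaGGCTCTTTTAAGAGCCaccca
H2AC6: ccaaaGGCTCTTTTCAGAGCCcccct
H2AC11: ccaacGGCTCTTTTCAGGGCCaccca
H2BC21: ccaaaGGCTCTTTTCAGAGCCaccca
H4C8: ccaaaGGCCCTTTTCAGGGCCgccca
H4C9: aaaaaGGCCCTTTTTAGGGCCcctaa

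These 7 elements show the paired arms and the loop that SLBP recognises, with changes at a few bases between genes. The H4C8 transcript ran 1655 bases past its stem-loop, the H2AC11 transcript 1761 bases, the H2BC21 transcript 1729 bases and the H2AC6 transcript 1128 bases. H2BC5 had 2 transcripts, of which 1 held the stem-loop and ended 39 bases behind it, and its gene model spanned 26158146 to 26171349 of chromosome 6 on the plus strand in 2 exon blocks. H2AC6 lay at 26124145 to 26139116 of chromosome 6 on the plus strand, H4C8 at 26277609 to 26285638 of chromosome 6 on the minus strand, and H2BC12 at 27146418 to 27146798 of chromosome 6 on the minus strand. The GENCODE 29 model of H2BC12 was a single coding-length exon of 381 bases, whereas the length that the deposited counts and FPKM imply was 495 bases.

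Promoter windows of 300 bases, 250 before and 50 after the annotated start, were found in RefSeq (GRCh38.p14) for 52 of the 56 genes. The letters TATAAA, on either strand, were in 67.3% of these 52 windows and in 11.5% of 35116 promoter windows of that length. CCAAT on either strand was in 86.5% of the histone windows and in 34.6% of all windows. The octamer ATTTGCAT on either strand, the site known for the factor OCT1 in H2B promoters, was in 40.4% of the histone windows and in 1.77% of all. Octamers lay in 13 of 16 H2B windows and 8 of 11 H2A windows, and no window of an H1, H3 or H4 gene held these letters. Windows of a divergent H2A and H2B pair can overlap, so that 1 octamer can be counted for both genes.

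The promoter windows of H2BC5 (chr6:26157871-26158170, plus strand), H2AC6 (chr6:26123922-26124221, plus strand) and H4C8 (chr6:26285485-26285784, minus strand) are printed because these 3 genes had the highest fold changes among members with a mean of at least 1 CPM. Capitals mark the letters of these 3 motifs on either strand.

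H2BC5: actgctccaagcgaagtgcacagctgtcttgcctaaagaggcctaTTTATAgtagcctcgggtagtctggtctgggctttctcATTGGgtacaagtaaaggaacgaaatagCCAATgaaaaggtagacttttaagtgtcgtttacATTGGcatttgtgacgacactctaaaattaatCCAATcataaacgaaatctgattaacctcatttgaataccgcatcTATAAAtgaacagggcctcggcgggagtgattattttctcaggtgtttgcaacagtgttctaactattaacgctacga
H2AC6: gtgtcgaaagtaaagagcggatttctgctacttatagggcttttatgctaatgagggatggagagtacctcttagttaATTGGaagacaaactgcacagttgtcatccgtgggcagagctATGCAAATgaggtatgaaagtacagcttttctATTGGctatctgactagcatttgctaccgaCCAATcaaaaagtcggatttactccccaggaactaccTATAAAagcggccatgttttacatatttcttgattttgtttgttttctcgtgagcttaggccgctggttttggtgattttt
H4C8: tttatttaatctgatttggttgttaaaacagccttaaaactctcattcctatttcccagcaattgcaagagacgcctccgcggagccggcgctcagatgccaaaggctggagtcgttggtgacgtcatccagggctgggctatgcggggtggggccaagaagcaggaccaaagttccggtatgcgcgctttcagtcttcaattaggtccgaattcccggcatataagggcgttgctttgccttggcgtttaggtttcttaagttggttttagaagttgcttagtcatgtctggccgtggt

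The H2BC5 window held TATAAA on both strands and 4 copies of CCAAT but no octamer, and the H2AC6 window held all 3 kinds of letters. None of the 3 motifs was in the H4C8 window in its exact letters. Near matches, such as tataag in that window, were not counted. The windows of the 3 genes thus had no exact motif in common.

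Levels were compared between genes as FPKM, which divides counts by gene length. The median over the 56 genes of the mean FPKM was 0.249, and 47 of the 56 had a mean under 1 FPKM. Over all 16707 genes tested, which had passed the filter on low counts, the median was 3.90. The 56 include 40 genes that did not pass that filter, so these medians are not of like sets. Among the 16 genes that passed, the middle ones by mean FPKM were H1-4 at 1.29 and H1-3 at 0.820. All 56 together held 6025 counts, or 0.00615% of the counts of the 6 libraries. In 16 genes no library had more than 3 counts, and 10 genes had at least 10 counts in every library.

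In the H1 class, which encodes the linker histones, H1-2 was highest at 18.8 ± 2.25 FPKM (SD, n = 6 libraries). It was also the highest of the 56. H1-4 followed at 1.29 ± 0.250 FPKM, and H1-6, the testis linker histone, was at 0.0413 ± 0.0711 FPKM from 3 counts in all.

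Among the core histones, around which DNA is wound, H2B had the highest FPKM, with H2BC12 at 12.9 ± 3.20 FPKM and H2BC5 at 7.89 ± 2.71 FPKM. These SDs pool the libraries of both groups. The order of genes depends on model length, with implied lengths of 495 bases for H2BC12, 871 for H2BC5 and 1668 for H2AC6. In mean CPM, which is not divided by length, H2AC6 was above both, at 7.58 against 6.86 for H2BC5 and 6.38 for H2BC12. H2BC11 had 3.76 ± 0.598 FPKM and H2BC21 had 2.02 ± 0.180 FPKM. In the H2A class H2AC6 had 4.55 ± 1.15 FPKM and H2AC11 had 0.746 ± 0.231 FPKM, and the latter lay within its SD of H2AC20 at 0.727 ± 0.304 FPKM.

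H3 genes were lowest, with H3C10 at 0.495 ± 0.191 FPKM and H3C3 at 0.488 ± 0.183 FPKM, which differed by less than their SDs. In the H4 class H4C9 had 1.67 ± 0.530 FPKM and H4C3 had 1.00 ± 0.382 FPKM. By counts, H2B genes held 44.6% of the 6025 counts, H1 genes 25.4%, H2A genes 18.1%, H4 genes 8.25% and H3 genes 3.65%. The 7 genes with the highest CPM (H1-2, H2AC6, H2BC5, H2BC12, H2BC21, H2BC11 and H4C9) held 73.6% of the counts.

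**Figure D1:**
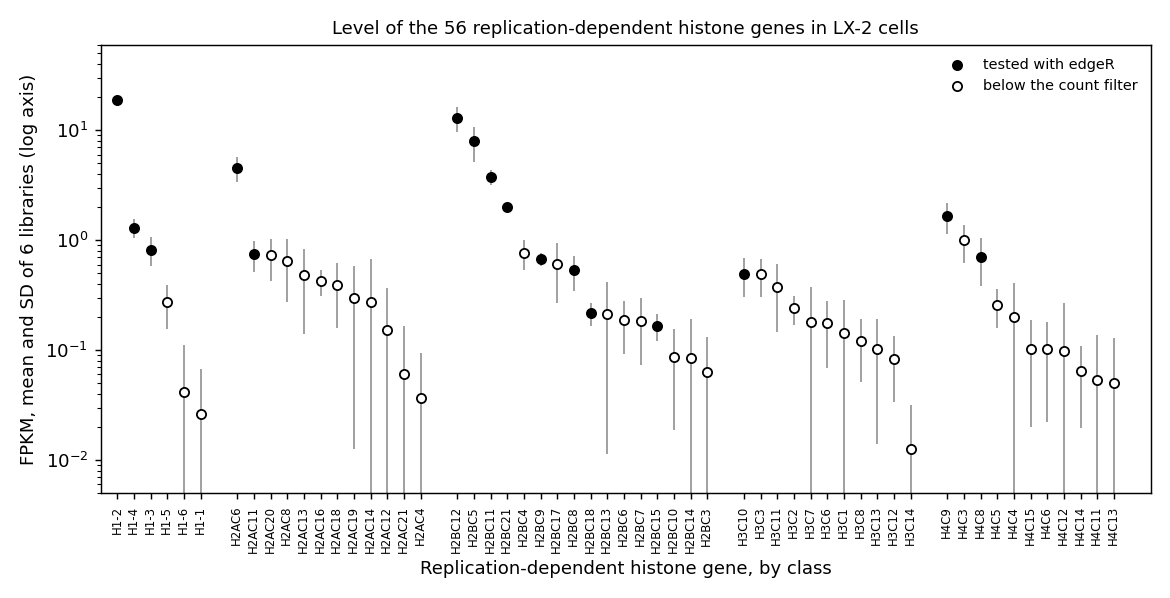
Mean FPKM of each of the 56 genes over the 6 libraries on a log axis, grouped by class, with bars for the SD. Bars that reach the lower edge extend below the axis. Filled points are the 16 genes that passed the filter on low counts. H1-2 at 18.8 FPKM and H2BC12 at 12.9 FPKM stand highest, and the H3 genes stay under 0.5 FPKM.

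Histone genes that are not tied to replication were far higher in the same libraries. The 16 replication-independent histone genes of a fixed list summed to 804 ± 69.9 FPKM (SD, n = 6 libraries), against 67.2 ± 10.2 FPKM for the 56 genes. The 56 thus made up 7.70% of the FPKM of both. H3-3B, which encodes the H3.3 variant, had a mean of 153 FPKM. Of these 16 genes, 6 were above H1-2.

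Most RNAs other than histone mRNA that carry no poly(A) tail were scarce in these libraries too. Of 33 such RNAs in the table, 24 had at most 3 counts in every library, among them the spliceosomal RNA gene RNU2-1 and the U7 RNA gene RNU7-1 at 0. The filter on low counts was passed by 5. RN7SL1, a gene of the signal recognition particle RNA, was at 99.1 ± 8.30 CPM under Vector-CM against 120 ± 38.5 CPM under FGFBP1-CM (SD, n = 3 each). RN7SL2, another gene of that RNA, had no count in any library. The labels name ribosomal RNA depletion and the published methods name poly(A) selection as well, and the part of RNA selection in these low levels was not tested.

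Several genes lay head to head with a partner of another class, on opposite strands within 1000 bases. There were 8 such pairs, 7 of an H2A with an H2B gene and 1 of H3C12 with H2BC17. Partners were seldom at like FPKM, with ratios of mean FPKM from 1.22 for H2AC8 and H2BC8 to 84.2 for H2BC12 and H2AC12. These ratios depend on model length, as H2AC8 had 32 counts on 509 bases and H2BC8 had 81 on 1534. Some rest on few reads, as in H2AC14 with 14 counts and H2BC14 with 4. H2BC12 had 632 counts over the libraries and H2AC12, which starts 331 bases away, had 7. H2AC6 had 751 counts and H2BC4, whose start is 219 bases away, had 63. H2BC11 had 382 counts and H2AC11 had 165, at 3.76 and 0.746 FPKM. The promoter window printed for H2AC6 therefore also holds the start region of H2BC4.

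Near-identical copies limit the values of part of the family. In 11 of the 54 annotated genes more than 50% of the 100-base windows of the longest transcript were shared with another gene, among them H2AC18 with H2AC19 and H4C14 with H4C15. Reads of such copies could have been split or discarded, and their counts are uncertain. Of the 16 tested genes 11 shared no window, and H2BC12 shared most at 28.4%. H2BC15 overlapped HIST1H2AK (an older symbol) and H2BC18 overlapped FCGR1A, and counting by strand is not stated, so reads there could belong to either gene.

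FGFBP1-CM was then compared with Vector-CM for the 16 genes that passed the filter, fitted with edgeR among 16707 genes. The other 40 genes had 63 counts or fewer in total and were not tested. Of 19 genes with models longer than 1000 bases 11 were tested, and of 37 genes with shorter models 5 were. Of the 16, 11 were above the filter's 0.621 CPM in all libraries of both groups, and 5 (H1-3, H2BC18, H3C10, H2BC15 and H2BC8) were above it in fewer, H2BC8 in 2 of 3 Vector-CM and 3 of 3 FGFBP1-CM libraries.

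None of the 16 passed an adjusted p of 0.05 in edgeR, where 0.120% of all genes tested did (9 higher and 11 lower, and 24 and 14 with RLE scaling). At an unadjusted p under 0.05, 4 were higher in FGFBP1-CM (25.0% of 16) and none were lower, where 11.1% of all genes were higher and 10.7% lower. DESeq2, which gave an adjusted p to 6 of the 16 and to 11848 genes in all, passed H2BC5 and H2AC6, where 4.94% of those genes passed. It gave none to the other 10, among them H4C8. With no filter on low counts edgeR tested all 56 genes and passed 4 of them, H2BC5, H2AC6, H2BC12 and H4C8, where 3.64% of 38002 genes passed. The log2 fold change was above 0 in 13 of the 16, with a median of 0.21 against 0.0032 over all genes. The groups did not overlap in 5 of the 16 (31.2%), all higher in FGFBP1-CM, where 12.8% of all genes were higher without overlap and 13.2% lower. H2BC8, among these 5, was above the filter's 0.621 CPM in 2 of 3 Vector-CM and 3 of 3 FGFBP1-CM libraries.

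H2BC5, an H2B gene, had 84, 69 and 81 counts in Vector-CM and 199, 121 and 130 counts in FGFBP1-CM. Scaled to depth these were 4.69, 4.99 and 5.46 CPM against 10.5, 7.59 and 7.95 CPM. Every FGFBP1-CM library was above every Vector-CM library, and FGFBP1-CM replicate 1 was the highest. The log2 fold change was 0.79 ± 0.157 (SE), or 1.73-fold, with an adjusted p of 0.0568 in edgeR. Over the 16 alternative fits this adjusted p lay between 6.1e-05 and 0.241, past the threshold in 5, and the log2 fold change between 0.63 and 0.88. The fit with no filter on low counts, in which 1382 of 38002 genes passed, gave the lowest adjusted p. It did so also for H2AC6, H2BC12 and H4C8 below. That fit had infinite prior degrees of freedom, against 9.32 in the main fit, so it took each gene's variance from the trend over genes alone. DESeq2 gave H2BC5 an adjusted p of 0.0061. Among the 5 that passed, leaving out FGFBP1-CM replicate 2 gave an adjusted p of 0.0174 in edgeR and leaving out FGFBP1-CM replicate 3 one of 0.0313. These 2 fits passed 860 and 338 of all genes, against 20 in the main fit. H2BC5 did not pass in edgeR without FGFBP1-CM replicate 1, at 0.0615. Nor did it pass without Vector-CM replicate 1, 2 or 3, at 0.158, 0.187 and 0.241.

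H2AC6, the H2A gene beside H2BC4, had 5.86, 6.44 and 6.06 CPM in Vector-CM and 10.3, 7.85 and 8.93 CPM in FGFBP1-CM. The groups did not overlap. The log2 fold change was 0.57 ± 0.139 (SE) with an adjusted p of 0.0680 in edgeR, between 0.0065 and 0.254 over the alternative fits, 3 of which passed. Among these was the fit without FGFBP1-CM replicate 2, at 0.0278. Without any other 1 library the adjusted p in edgeR was 0.0658 to 0.254.

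H2BC12 had 5.08, 5.79 and 4.92 CPM in Vector-CM and 8.81, 7.34 and 6.36 CPM in FGFBP1-CM. The groups did not overlap here either, and FGFBP1-CM replicate 1 was again the highest. The log2 fold change was 0.52 ± 0.155 (SE) with an adjusted p of 0.0968 in edgeR, and 1 of the alternative fits passed, within a range of 0.0306 to 0.291. Copies share 28.4% of its sequence windows, as given above.

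H4C8 had the largest fold change of the 16 and rested on few reads, with 19, 12 and 17 counts in Vector-CM and 52, 26 and 28 counts in FGFBP1-CM. These were 1.06, 0.868 and 1.15 CPM against 2.74, 1.63 and 1.71 CPM. The groups did not overlap, and replicate 1 of FGFBP1-CM held about as many counts as the other 2 of its group together. The log2 fold change was 0.99 ± 0.283 (SE) with an adjusted p of 0.0906 in edgeR, and between 0.0160 and 0.260 over the alternative fits.

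H1-2, the most abundant member, had 10.6, 15.2 and 14.8 CPM in Vector-CM and 14.2, 14.5 and 13.5 CPM in FGFBP1-CM. The groups overlapped, and the lowest value was that of Vector-CM replicate 1. The log2 fold change was 0.06 ± 0.133 (SE), with an adjusted p of 0.823 in edgeR, and it was -0.09 without that library. H1-4 had 1.17, 0.651 and 1.08 CPM against 1.16, 1.00 and 1.04 CPM, with overlapping groups.

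H2BC21 and H2BC11 were the H2B genes with values below 0. H2BC21, which lies on chromosome 1, had 4.63, 4.85 and 4.45 CPM in Vector-CM and 4.17, 3.77 and 4.77 CPM in FGFBP1-CM, a log2 fold change of -0.13 ± 0.159 (SE). H2BC11 had 3.74, 4.20 and 4.45 CPM against 2.95, 3.58 and 4.77 CPM, a log2 fold change of -0.13 ± 0.197 (SE). The groups overlapped in both, and the adjusted p in edgeR was 0.665 and 0.729. In H2BC11 FGFBP1-CM replicate 1 was the lowest library, where in H2BC5 and H2BC12 it was the highest.

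**Figure D2:**
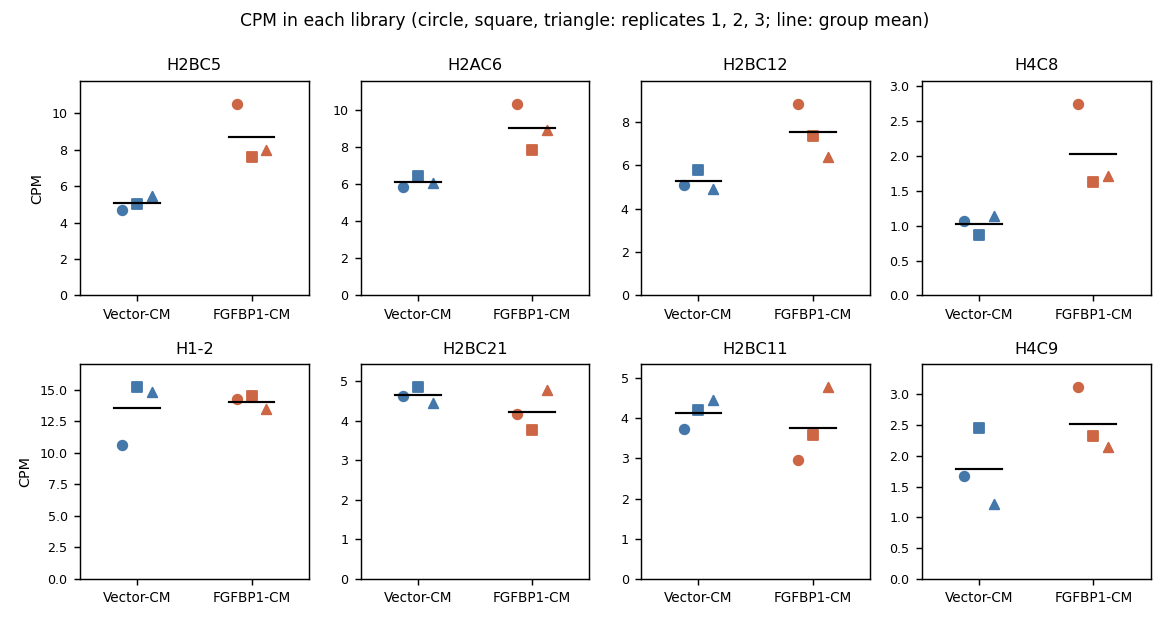
CPM of 8 replication-dependent histone genes in each library, with Vector-CM in blue and FGFBP1-CM in orange, a marker shape for each replicate number and a line for the group mean. The groups are apart in H2BC5, H2AC6, H2BC12 and H4C8, and they overlap in H1-2, H2BC21, H2BC11 and H4C9.

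Within 1 class values lay on either side of 0. Among the 8 tested H2B genes 6 were above 0 and 2 below, and H2BC8 was the remaining gene with groups apart, at 0.726, 0.434 and 0.674 CPM against 0.897, 0.879 and 1.28 CPM. Its log2 fold change was 0.70 ± 0.328 (SE) with an adjusted p of 0.231 in edgeR. H2AC11 had a log2 fold change of 0.54 ± 0.277 (SE) and H4C9 one of 0.52 ± 0.266 (SE), both with overlapping groups and with adjusted p in edgeR of 0.278 and 0.272. H3C10, the tested H3 gene, had 0.14 ± 0.423 (SE) from 60 counts in all.

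**Figure D3:**
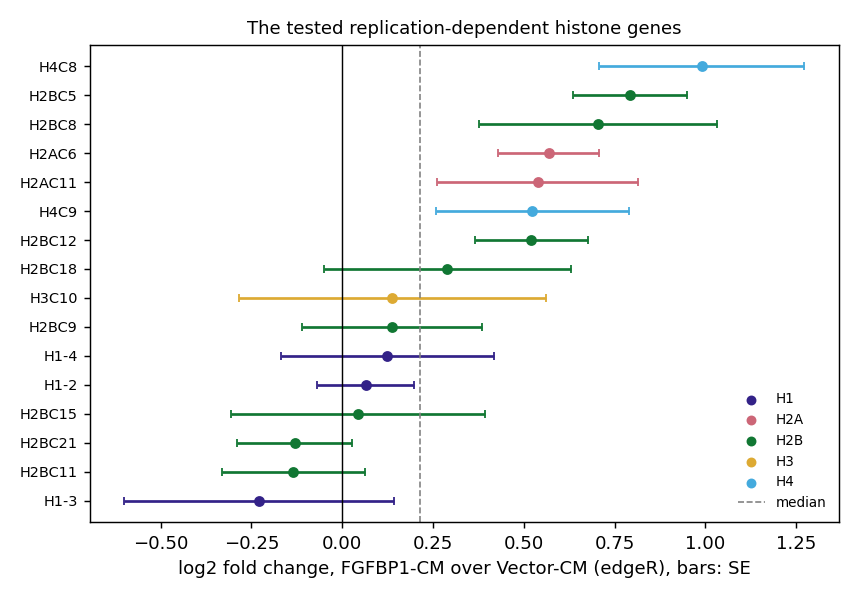
Log2 fold change of the 16 tested genes, FGFBP1-CM over Vector-CM, from edgeR, with bars for the SE and colours for the class. The dashed line is the median of the 16 at 0.21, and 13 genes lie above 0, from 0.04 in H2BC15 to 0.99 in H4C8.

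Summed over the 56 genes, the level was 50.5, 59.0 and 55.3 CPM in Vector-CM and 74.8, 62.3 and 65.8 CPM in FGFBP1-CM. The groups did not overlap, and the log2 ratio of the group means was 0.30, or 1.23-fold. A sum over chosen genes was given no test. Without FGFBP1-CM replicate 1, the highest library, the log2 ratio was 0.22. Under Vector-CM and FGFBP1-CM the 4 genes at an unadjusted p under 0.05 in edgeR, picked from these same values, summed to 17.5 ± 0.706 and 27.3 ± 4.46 CPM. The other 12 tested genes summed to 31.2 ± 3.70 and 33.0 ± 1.40 CPM, with overlapping groups. The 40 genes not tested summed to 6.27 ± 0.592 CPM under Vector-CM and 7.33 ± 1.38 CPM under FGFBP1-CM (SD, n = 3).

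By class, the H2A sum was 9.09 ± 1.15 CPM under Vector-CM against 13.0 ± 1.76 CPM under FGFBP1-CM, and the H2B sum was 24.2 ± 0.732 and 30.4 ± 2.30 CPM (SD, n = 3). In both the groups were apart. The H1 sum was 15.5 ± 2.39 and 16.0 ± 0.651 CPM, the H3 sum 2.04 ± 0.0479 and 2.40 ± 0.736 CPM, and the H4 sum 4.10 ± 0.778 and 5.88 ± 1.81 CPM, all with overlapping groups. FGFBP1-CM replicate 1 was the highest of the 6 libraries in the H2A, H2B, H3 and H4 sums. It was also the highest library in 6 of the 16 tested genes and in 29.5% of all genes tested. That library had the lowest hepatocyte marker sum, at 18.7 CPM, and the part of its other differences in the histone sums was not tested.

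**Figure D4:**
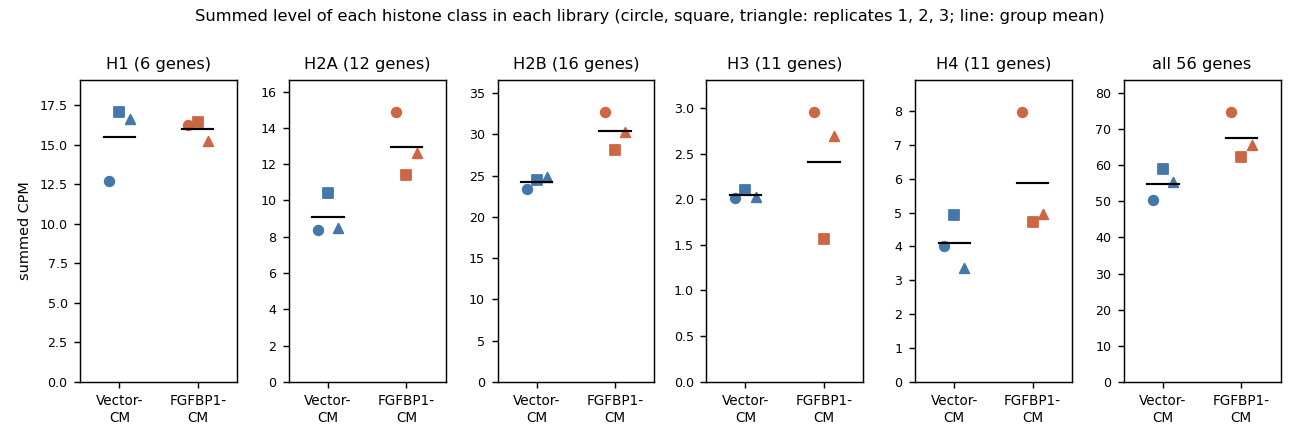
Summed CPM of each histone class and of all 56 genes in each library, with Vector-CM in blue and FGFBP1-CM in orange, a marker shape for each replicate number and a line for the group mean. The H2A, H2B and total sums are apart between the groups, and the H1, H3 and H4 sums overlap.

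The genes that make, cut and degrade histone mRNA were described from a list of 42, all of which were tested. None passed the adjusted threshold in edgeR, 9 were higher and 4 lower at an unadjusted p under 0.05, and the median log2 fold change was 0.05. At that unadjusted p 11.1% of all genes tested were higher and 10.7% lower, which is the background for the lists below as well. SLBP, which binds the stem-loop, was at 158 ± 8.26 CPM under Vector-CM against 139 ± 7.25 CPM under FGFBP1-CM (SD, n = 3 each), with a log2 fold change of -0.19 ± 0.0672 (SE) and an adjusted p of 0.135 in edgeR. ZNF473, a zinc finger protein that joins SLBP to the U7 snRNP, was at 15.2 ± 0.678 and 23.4 ± 6.35 CPM, with a log2 fold change of 0.64 ± 0.154 (SE) and an adjusted p of 0.0680 in edgeR. The groups did not overlap in either gene.

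LSM11, a U7-specific protein, was at 50.7 ± 1.48 and 40.0 ± 6.96 CPM, with a log2 fold change of -0.35 ± 0.106 (SE) and an adjusted p of 0.103 in edgeR. Its partner LSM10 had -0.03 ± 0.0968 (SE). NPAT, the coactivator of histone gene transcription, had a log2 fold change of 0.19 ± 0.0913 (SE), CASP8AP2, which binds LSM11 at the cleavage complex, had 0.05 ± 0.0939 (SE), and ERI1, an exonuclease that trims the histone mRNA end, had 0.16 ± 0.0778 (SE). The groups overlapped in LSM10, NPAT and CASP8AP2 and were apart in LSM11 and ERI1.

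The replication-independent histones, 12 of 16 tested, had a median log2 fold change of -0.08, and 2 of the 12 were above 0. None passed the adjusted threshold in edgeR, and 3 were lower and none higher at an unadjusted p under 0.05. H3-3A, which encodes H3.3, had a log2 fold change of -0.22 ± 0.0686 (SE), and H3-3B, the other H3.3 gene, had -0.06 ± 0.0669 (SE). H2AZ1 had 0.06 ± 0.0642 (SE), H2AX 0.11 ± 0.0805 (SE), H1-10 -0.20 ± 0.105 (SE) and CENPA, the centromeric H3, -0.09 ± 0.0797 (SE). The groups were apart in H3-3A and overlapped in the other genes named here.

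Of 28 histone chaperone and assembly genes 26 were tested and none passed, with 3 higher and 2 lower at an unadjusted p under 0.05 and a median of -0.05. Genes of DNA replication, which act in the phase in which these histones are made, had a median log2 fold change of -0.08 over 46 tested. None was past the adjusted threshold in edgeR. At an unadjusted p under 0.05, 15 were lower and none higher, where 10.7% of all genes were lower and 11.1% higher. Their summed level was 4204 to 4330 CPM under Vector-CM against 3788 to 4133 CPM under FGFBP1-CM, and FGFBP1-CM replicate 1 was the lowest. PCNA, the sliding clamp of the replication fork, had a log2 fold change of 0.02 ± 0.0630 (SE).

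Of 30 mitosis genes ASPM, a spindle pole protein, passed, with a log2 fold change of 0.49 ± 0.0846 (SE) and an adjusted p of 0.0494 in edgeR. The call was lost without Vector-CM replicate 2 or 3, with an adjusted p of 0.187 and 0.241 in edgeR. The median was -0.01, and MKI67, a marker of cycling cells, had 0.07 ± 0.0765 (SE). The 16 tested histone genes and these lists share the libraries, so their directions are not independent of each other.

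**Figure D5:**
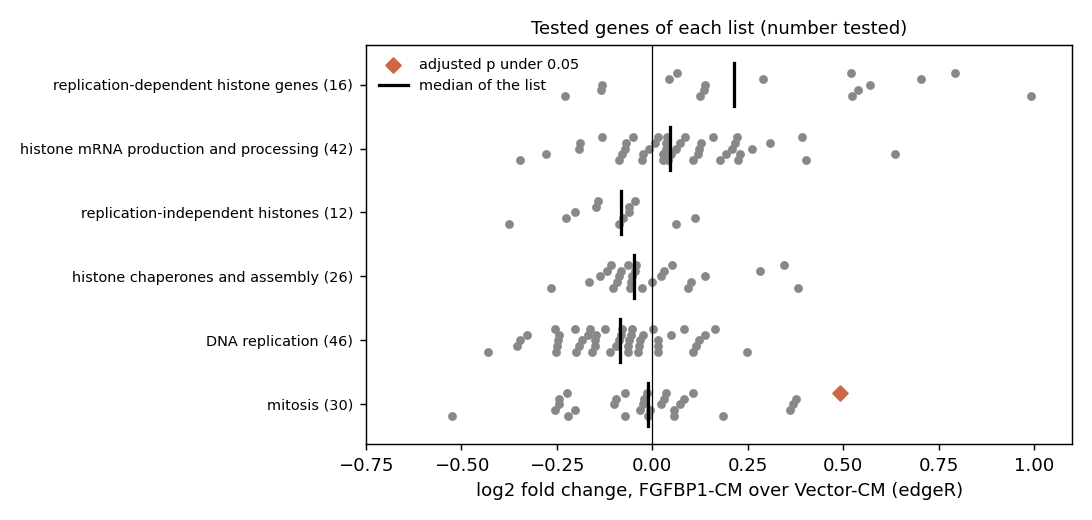
Log2 fold change, FGFBP1-CM over Vector-CM, of each tested gene of the replication-dependent histone genes and of 5 lists, from edgeR, with the number tested in brackets, black bars for the medians and an orange diamond for the gene past the adjusted threshold. The median is 0.21 for the 16 histone genes and lies between -0.08 and 0.05 in the lists, and ASPM is the diamond.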

How the data were processed

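Total RNA of LX-2 cells was sequenced in 6 libraries (3 Vector-CM, 3 FGFBP1-CM), grouped by the sample labels. The authors deposited raw gene counts and, beside them, FPKM values. The submitters' processing notes list HISAT2 2.0.5, featureCounts 1.5.0-p3, DESeq2 1.16.1, edgeR and the build hg18. Whether strand was used is not given in the sources used here. Coordinates and transcripts are those of GENCODE 29 (GRCh38) for the same Ensembl identifier, and need not be those used for counting. The table's columns of Gene Ontology entries were used for the choice of genes. In these histone families the rows without an entry had at most 1 count in total. Those with an entry had 2 or more, so that condition follows detection there.

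Counts were analysed in R 4.3.3 with edgeR 4.0.16: filterByExpr, TMM scaling, and the quasi-likelihood F-test with Benjamini-Hochberg adjustment over 16707 genes at 0.05. CPM are per TMM-scaled library, and each SE is the log2 fold change divided by the root of F. The fit was tested on simulated data. DESeq2 1.42.0 and limma 3.58.1 on log2(FPKM + 1) or log2(FPKM + 0.1) were alternatives, beside other scalings, filters, a GC content and length correction, a replicate block and leaving out each library. Fold changes on the log2(FPKM + pseudocount) scale understate the change of low genes.

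Members named were those past the threshold, the 2 of highest FPKM in each class, and the 3 highest and 3 lowest log2 fold changes with a mean of at least 1 CPM, and, of the lists, those past the threshold and fixed regulators and variants, 1 of which is not reported here. Other members named were chosen after their values were seen. Members and lists were chosen with earlier results of these data known. RMRP, RGS5 and Y_RNA, whose symbols stand on several rows, were left out of the lists. Counting error alone is covered by the 3-count floor.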

Additional observations from a re-analysis of the deposited data

How the results depend on the processing

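Adjusted p under 0.05 was passed by none of the tested histone genes in the edgeR fit and by none with either other scaling, a mean of at least 1 CPM as the filter, limma on FPKM, or the replicate block with or without the GC content and length correction. It was passed by 2 of the 6 that DESeq2 gave an adjusted p, by 1 (H2BC5) with the GC content and length correction, by 4 of all 56 with no filter on low counts and by 4 at an unadjusted p under 0.05, all of them higher. Leaving out 1 library gave 0 to 2, with 2 without FGFBP1-CM replicate 2 (H2BC5 and H2AC6) and 1 without FGFBP1-CM replicate 3 (H2BC5). The fit with no filter had infinite prior degrees of freedom, against 9.32 in the main fit, and gave a gene's own spread no weight. The part of this in the differences was not tested, nor was any other cause.

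Over all genes the 20 calls (9 higher, 11 lower) became 38 (24 higher, 14 lower) with RLE scaling, 585 with DESeq2, 46 with the GC content and length correction, 11 with a mean of at least 1 CPM, 1382 with no filter, 1 with limma at either pseudocount and 3630 at an unadjusted p. Leaving out 1 library gave 4 to 860, the latter without FGFBP1-CM replicate 2, with 62 and 338 without replicates 1 and 3 of FGFBP1-CM and 4 to 6 without a Vector-CM library. No scaling moved the median of all genes by as much as 0.1. Beside the cell type marker lists, the 1 call in the lists (ASPM) became 14 with DESeq2, 23 with no filter, 0 with limma at either pseudocount or a mean of at least 1 CPM, 47 at an unadjusted p and 0 to 16 without 1 library, with 16, 6 and 2 without FGFBP1-CM replicates 2, 3 and 1, and 0 without Vector-CM replicate 2 or 3.

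Replicate numbers did not pair the samples, with correlations of the deviations of same-numbered libraries of -0.113, -0.0189 and 0.150. With the number as a replicate block 90 genes passed, none of them a replication-dependent histone gene, and 1 in the other lists. The block with the GC content and length correction gave 163 genes, none of these histone genes and 3 in the lists.

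The log2 ratio of the summed level, 0.299, stayed within the spread between replicates of 0.124 under its 11 alternatives, the lowest being 0.221 (FGFBP1-CM replicate 1 left out) and the highest 0.355 (replicate 2 of FGFBP1-CM left out). Of 181 values of single named genes, 5 turned direction, all on leaving out 1 library. Over the left-out libraries H1-2 ranged from -0.0909 (Vector-CM replicate 1) to 0.156, H1-4 from -0.0717 (Vector-CM replicate 2) to 0.30, H3C10 from -0.141 (FGFBP1-CM replicate 1, and -0.0476 without Vector-CM replicate 1) to 0.481, and H2BC11 from -0.339 to 0.0245 (FGFBP1-CM replicate 1). The filter on low counts left 40 of the 56 genes out of the test, and the cause of their low counts was not tested.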
